A study of Ovis aries with 18 samples.

Results

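CXCL1, CXCL8 and CXCL16 are genes of the CXC chemokine family, and each was followed in sheep whole blood by every probe the array holds for it. CXCL1 had the probes A_70_P039396 and A_70_P039397, CXCL8 had A_70_P039661 and A_70_P039662, and CXCL16 had A_70_P057176. These 5 probes were taken by identifier from 15008 non-control probes, and the 3 genes stood among 949 genes that could be named on the array. All 5 passed the filter on dim probes, CXCL16 through its LPS arrays alone.

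The blood came from 6 healthy adult female sheep of about 3 years, named 71Y, 51Y, 20, 170, 80 and 65Y. Blood of every animal was split into portions kept for 90 minutes with phosphate-buffered saline (PBS, the control), with 1 microg of lipopolysaccharide (LPS) or with 10 microg of monophosphoryl lipid A (MPLA), and RNA of each portion went to its own array. The study's methods give these amounts per mL of blood. LPS is the outer membrane glycolipid of Gram-negative bacteria, and MPLA is a less toxic form of its lipid A part that lacks a phosphate. Both act on the receptor TLR4. Since agonist and amount changed together, they cannot be told apart where MPLA is set against LPS. The blood was heparinised and stimulated outside the animal, so cells of the vessel wall and of the tissues, which also make chemokines, were not part of the measurement.

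Chemokines are small secreted proteins that draw leukocytes along a gradient. CXCL1 and CXCL8 (interleukin 8) both attract neutrophils through the receptor CXCR2, and CXCL8 acts on CXCR1 as well. Their genes lie in the same cluster, and in monocytes and other cells both are switched on rapidly by NF-kB after TLR4 is engaged. CXCL16 differs from both: it is made as a membrane protein with a mucin stalk, binds the receptor CXCR6 on T cells and natural killer T cells, also takes up oxidised lipoprotein as a scavenger receptor, and is released as a soluble chemokine when its stalk is cut. In the sheep assembly ARS-UI_Ramb_v3.0, 7 genes separated CXCL1 from CXCL8, among them PPBP, another neutrophil-attracting CXC chemokine, whereas CXCL16 was on a different chromosome.

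Levels are given as the background-subtracted spot signal divided by the 75th percentile of all non-control probes on that array, and changes as differences of its log2 within an animal. Arrays differed in brightness. The 75th percentile was lowest under PBS in animal 170 (24.8) and highest under PBS in animal 71Y (124.2), and 23.9% to 45.1% of probes were marked well above background by the scanner software. No spot was saturated. Of the 3 slides used, each animal stayed on 1, apart from animal 170, for which MPLA was hybridised on slide 2 and the other treatments on slide 1.

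CXCL1 rose with both agonists in every animal. Probe A_70_P039396, the brighter of its pair, had a level of 5.69 at the lowest, 9.53 at the median and 10.3 at the highest across the 6 PBS arrays. With LPS the lowest, median and highest levels were 33.7, 51.3 and 88.1, and with MPLA they were 24.3, 27.3 and 41.0. No LPS or MPLA array overlapped a PBS array, while the LPS and MPLA ranges overlapped. All 18 arrays were well above background, so CXCL1 was detected in unstimulated blood of all 6 sheep.

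The rise of CXCL1 with LPS was 2.59 ± 0.64 on the log2 scale (SD, n = 6; limma adjusted p = 0.00036), or 6.01-fold, with a 95% interval of 2.06 to 3.11 on the log2 scale. Single animals ranged from 1.84 in 51Y to 3.57 in 20. The rise with MPLA was 1.77 ± 0.27 (SD, n = 6; limma adjusted p = 0.00030), or 3.41-fold, with an interval of 1.41 to 2.12. It ran from 1.38 in 51Y to 2.09 in 71Y, a narrower span than with LPS. The exact sign-flip test over the 6 animals gave p = 0.031 for each agonist, the smallest p that 64 sign patterns allow. The same 6 PBS values serve both comparisons, so the rises are not independent of one another. In whole blood, a change in RNA per cell and a change in the number of cells that make the RNA cannot be told apart.

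The other CXCL1 probe, A_70_P039397, gave the same picture. Its lowest, median and highest levels were 5.65, 8.62 and 9.38 with PBS, 28.5, 38.8 and 72.5 with LPS, and 20.0, 23.9 and 32.9 with MPLA. Again no stimulated array overlapped a PBS array. The rise was 2.38 ± 0.65 with LPS (SD, n = 6; limma adjusted p = 0.00054) and 1.59 ± 0.29 with MPLA (SD, n = 6; limma adjusted p = 0.00065).

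**Figure D1:**
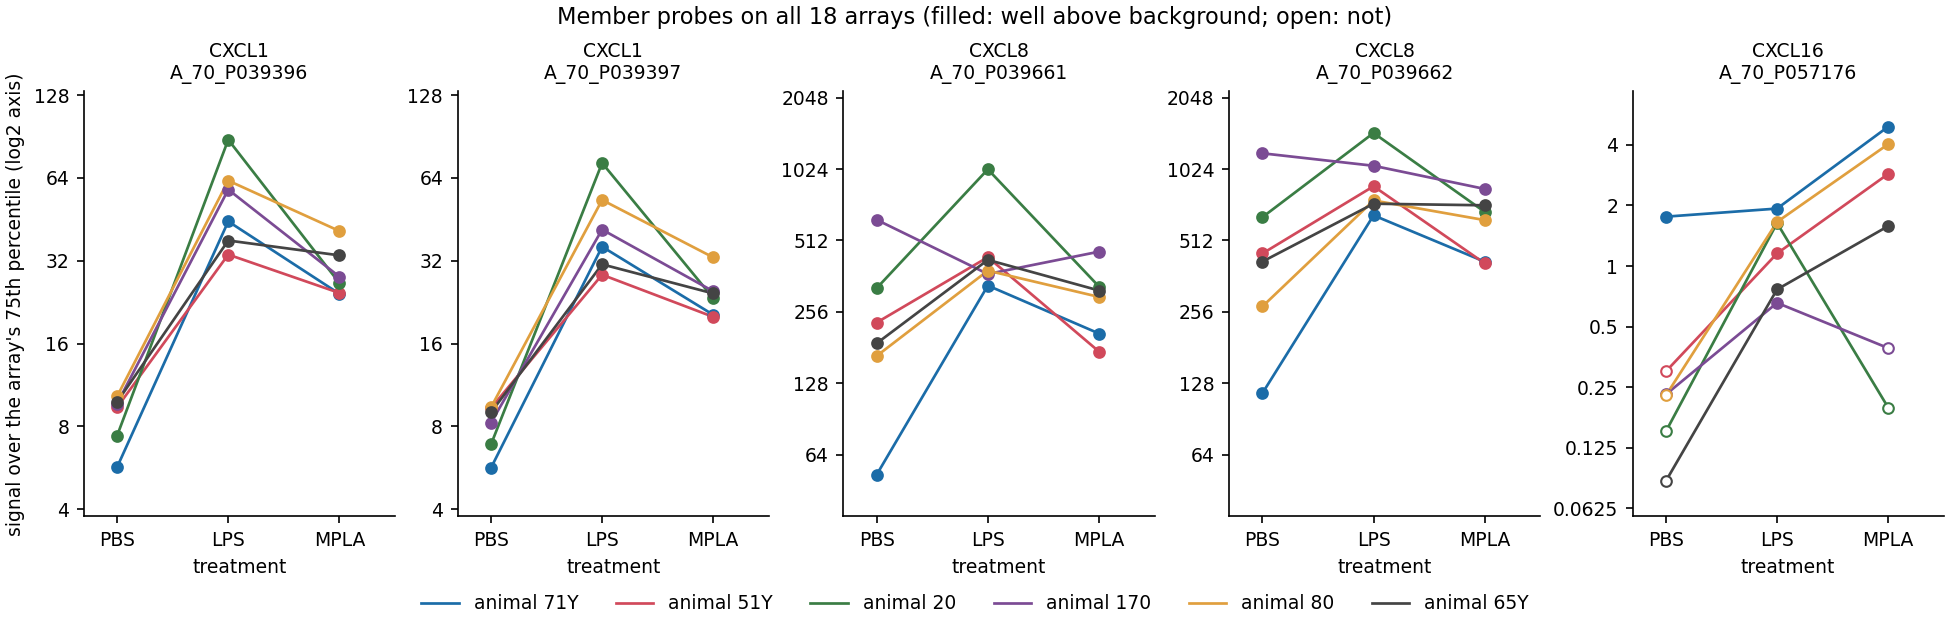
Level of each of the 5 probes (vertical, signal over the array's 75th percentile, log2 axis, scaled separately in each panel) under PBS, LPS and MPLA, with 1 line per animal. Filled points are well above background and open points are not. The CXCL1 lines all rise from PBS to both agonists, the CXCL8 lines start far apart under PBS, with animal 170 highest and animal 71Y lowest, and CXCL16 is open on 5 of 6 PBS arrays.

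CXCL8 was bright in blood that had seen only PBS, and its PBS level differed more between sheep than that of CXCL1. Probe A_70_P039662, the brighter one, had PBS levels of 116.2 at the lowest, 434.2 at the median and 1194 at the highest. With LPS the lowest, median and highest were 653.7, 811.3 and 1455, and with MPLA they were 410.0, 650.1 and 844.9. The SD of the log2 level over animals was 1.14 with PBS, 0.42 with LPS and 0.43 with MPLA, and for CXCL1 A_70_P039396 it was 0.33, 0.51 and 0.30. The difference in spread was not tested.

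With LPS, CXCL8 was higher than with PBS in 5 of 6 animals, at a mean log2 change of 1.12 ± 0.87 (SD, n = 6), or 2.18-fold, with a 95% interval of 0.46 to 1.78. It did not pass the threshold across all tested probes (limma adjusted p = 0.27; exact sign-flip p = 0.063). The range of LPS levels overlapped that of PBS through animal 170 alone, the array with the PBS level of 1194. Without animal 170 the LPS change was 1.38 and was called (limma adjusted p = 0.021). Without animal 71Y it was 0.85 and was not called (limma adjusted p = 0.50).

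These 2 animals marked both ends of the CXCL8 response. Animal 71Y had the lowest PBS level and the largest changes, 2.49 with LPS and 1.84 with MPLA. Animal 170 had the highest PBS level and the lowest changes, at -0.17 with LPS and -0.50 with MPLA. The change contains the PBS level, so this order is a description and not a separate finding. Their PBS arrays were also the brightest and the dimmest of all 18 by the 75th percentile, and before scaling the spot signals of A_70_P039662 on them were 14437 in 71Y and 29639 in 170, within the PBS range of 12540 to 63805. The part that array brightness played in the CXCL8 levels was not tested.

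With MPLA the change of CXCL8 from PBS was 0.55 ± 0.89 (SD, n = 6; limma adjusted p = 0.66; exact sign-flip p = 0.22), higher in 4 of 6 animals, with a 95% interval of -0.11 to 1.20 that spans no change and a rise of 2.30-fold. Without animal 71Y this change was 0.29 (limma adjusted p = 0.65). Animals 80 and 65Y gained 1.21 and 0.79, animal 20 was at 0.07, and animals 51Y and 170 were at -0.14 and -0.50. Probe A_70_P039661 gave 1.14 ± 1.12 with LPS (SD, n = 6; limma adjusted p = 0.60) and 0.45 ± 0.93 with MPLA (SD, n = 6; limma adjusted p = 0.66). Its lowest, median and highest levels were 52.7, 209.6 and 625.9 with PBS, 330.4, 403.0 and 1022 with LPS, and 174.0, 305.4 and 459.3 with MPLA.

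CXCL16 was below the detection limit on most PBS arrays, and its distance above that limit varied among the arrays where it was detected. On the MPLA array of 71Y its signal was 490.1 and the lowest detected signal 36.2. On the LPS array of 65Y these were 21.9 and 19.3. The PBS array of animal 71Y alone was well above background, at a level of 1.76, and the other 5 lay between 0.0854 and 0.299. With LPS all 6 arrays were well above background, at 0.656 at the lowest, 1.40 at the median and 1.93 at the highest. With MPLA 4 of 6 were, at 1.58 in 65Y, 2.87 in 51Y, 4.04 in 80 and 4.93 in 71Y, while animals 20 and 170 stayed not well above background at 0.198 and 0.391. CXCL16 was thus detected under both PBS and MPLA in 71Y, under MPLA but not PBS in 51Y, 80 and 65Y, and under neither in 20 and 170.

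The CXCL16 probe passed the filter only through its LPS arrays, so its p against PBS is a description and not support for a rise. The fitted change of CXCL16 with LPS was 2.18 ± 1.24 (SD, n = 6; limma adjusted p = 0.039), with a 95% interval of 1.29 to 3.06. In 71Y, the animal with a detected PBS level, it was 0.13. The other 5 PBS values are background readings, so the changes of those animals, fitted at 1.51 to 3.44, have no fixed size. In animal 170 the LPS level of 0.656 lay below 1.13, the lowest detected level on its PBS array, so no rise can be read there. With signals raised to each array's lowest detected signal it was 0.96, with background correction by normexp it was 0.49, and neither was called (limma adjusted p = 1.0 and 0.84). The call was also lost with no animal block (limma adjusted p = 0.19) and without animal 51Y, 20, 80 or 65Y, each left out in turn, at changes of 1.92 to 2.22.

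With MPLA the fitted change of CXCL16 was 2.38 ± 1.71 (SD, n = 6; limma adjusted p = 0.090) and was not called. It was 1.38 with signals raised to each array's lowest detected signal and 0.93 with normexp. In 71Y, detected under both treatments, the change was 1.49. Animals 65Y, 80 and 51Y, detected with MPLA alone, were fitted at 4.21, 4.15 and 3.26 against background readings. Animals 170 and 20 were detected under neither, so their differences of 0.77 and 0.39 are between background readings and carry no direction. Without animal 20 the change was 2.77 and was called (limma adjusted p = 0.011). The MPLA arrays of animals 170 and 20, where CXCL16 was not detected, had the lowest 75th percentiles of the 6, at 42.0 and 45.0, against 64.5 to 99.3 on the others. The LPS array of 65Y, where it was detected, had 28.6. The part of array brightness in the detection of CXCL16 was not tested.

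**Figure D2:**
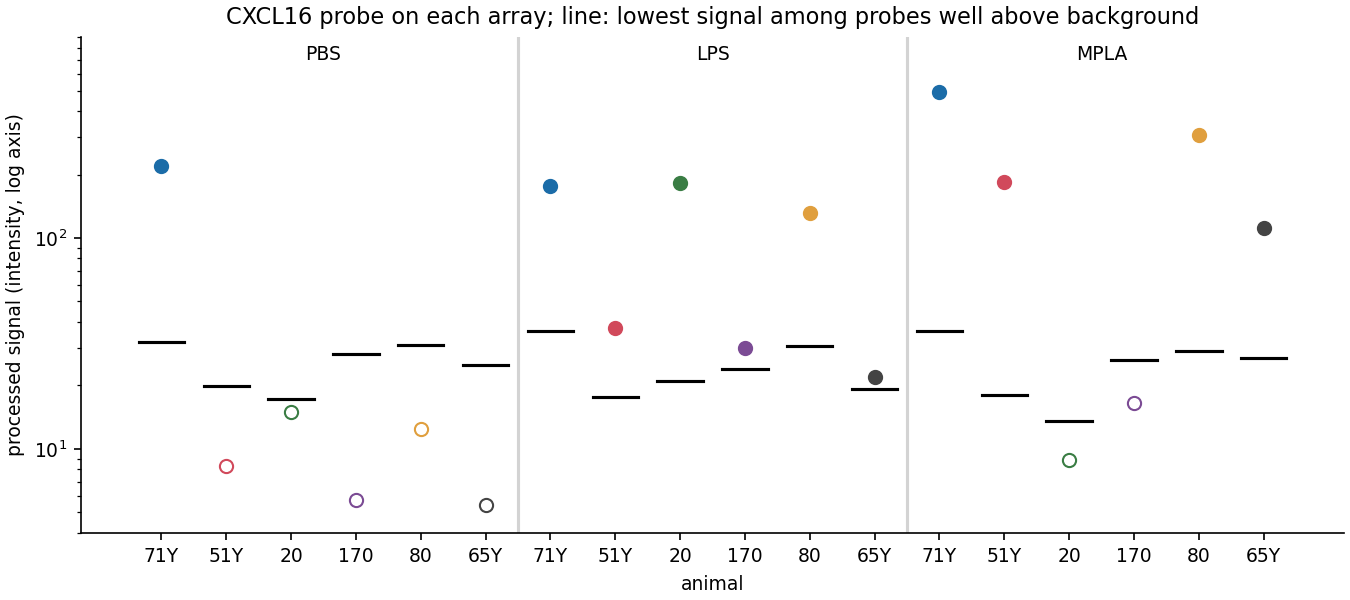
Processed spot signal of the CXCL16 probe on each of the 18 arrays (vertical, intensity, log axis) by treatment and animal. Filled points are well above background, open points are not, and each black line is the lowest signal among detected probes on that array. The open points lie below their lines on 5 PBS and 2 MPLA arrays, and the LPS points of animals 65Y and 170 lie just above theirs.

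Set against all probes, CXCL1 was among a small called share. Of 4122 tested probes, limma called 37 (0.898%) with LPS and 41 (0.995%) with MPLA, at a Benjamini-Hochberg adjusted p under 0.05. Both CXCL1 probes were called with each agonist and neither CXCL8 probe with any. The CXCL16 probe was called with LPS, but it entered the test only through the LPS arrays, where it is high, and is not read against these shares. All 6 stimulated arrays exceeded all 6 PBS arrays for 0.679% of tested probes with LPS and 0.607% with MPLA, and among the 5 this held for the CXCL1 probes alone. A rise in every animal was seen in 2.23% of tested probes with LPS and 2.09% with MPLA, and here in both probes of CXCL1 and in neither of CXCL8. CXCL16 is left out of this count because most of its PBS readings are background. The median change over all tested probes was -0.01 with LPS and -0.09 with MPLA.

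**Figure D3:**
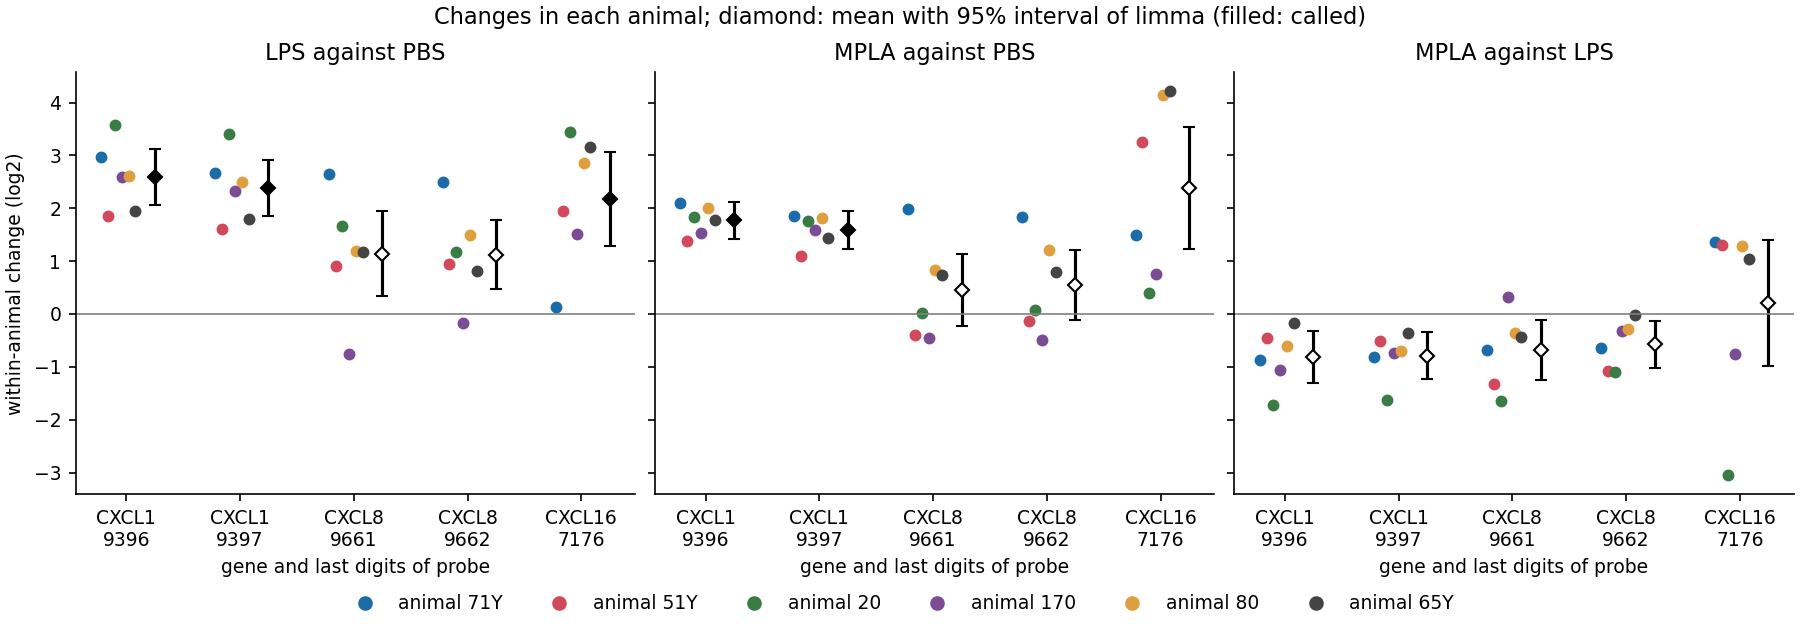
Within-animal log2 change of each probe in the 3 comparisons. Coloured points are the 6 animals, diamonds are means with the 95% interval of limma, and a filled diamond marks an adjusted p under 0.05. CXCL1 changes are all above 1 with either agonist, CXCL8 points spread from below 0 to 2.65, and the CXCL16 points include 5 animals whose PBS reading was background.

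The direct comparison of MPLA with LPS asked whether the agonists, at these amounts, gave different levels in the same animals. CXCL1 was lower with MPLA in 6 of 6 animals by both probes. The difference for A_70_P039396 averaged -0.82 ± 0.54 (SD, n = 6), with a 95% interval of -1.31 to -0.33, and for A_70_P039397 it averaged -0.79 ± 0.45 (SD, n = 6). The exact sign-flip test gave p = 0.031 for each probe. Neither passed once all tested probes were accounted for (limma adjusted p = 0.83 and 0.78). Animal 20 had the largest difference, at -1.73 by A_70_P039396, and animal 65Y the smallest, at -0.18.

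CXCL8 leaned the same way. By A_70_P039662 every sheep had a lower level under MPLA, at a mean of -0.58 ± 0.45 (SD, n = 6; limma adjusted p = 0.84; exact sign-flip p = 0.031), with a 95% interval of -1.02 to -0.13. By A_70_P039661 it was lower in 5 of 6, at -0.69 ± 0.71 (SD, n = 6; limma adjusted p = 0.84; exact sign-flip p = 0.063), and animal 170 was the exception at 0.31. CXCL16 had no common direction: 4 animals were higher with MPLA, by 1.05 to 1.35, and animals 170 and 20, undetected with MPLA, were at -0.75 and -3.05. In animal 170 the LPS level of 0.656 was just above 0.631, the lowest detected level on its MPLA array. The fitted mean of CXCL16 was 0.20 ± 1.78 (SD, n = 6; limma adjusted p = 0.94; exact sign-flip p = 0.84), with a 95% interval of -0.99 to 1.39. Since the MPLA readings of animals 170 and 20 are background, this mean and interval have no fixed size. The probe also passed the filter only through its LPS arrays.

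Over all probes, 2 were called between the agonists (0.0485%), both lower with MPLA, and none of the 5 chemokine probes was among them. In 76 probes (1.84%) MPLA was below LPS in every animal, 3 of them being both CXCL1 probes and A_70_P039662 of CXCL8. The median over all tested probes was -0.08. With normexp background correction that median moved to 0.20 and the lead probes of CXCL1 and CXCL8 differed by -0.26 and -0.04. The cause of this shift was not tested. None of the 5 probes was called between the agonists by limma under any alternative fit, although the methods' t-test, with no adjustment, called both CXCL1 probes at its own threshold.

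The probes of CXCL1 differed less from one another than those of CXCL8. For CXCL1 the log2 difference between its probes had an SD of 0.13 over the 18 arrays, and the within-animal changes had the same sign in 18 of 18 pairs. With LPS the change of A_70_P039396 exceeded that of A_70_P039397 in each of the 6 sheep, at a mean excess of 0.20 ± 0.07 (SD, n = 6), and the exact sign-flip test gave p = 0.031, or 0.19 when adjusted over the 6 tests between probes. For CXCL8 the SD over arrays was 0.22 and the sign was shared in 17 of 18 pairs. The within-animal changes by its probes differed by -0.58 to 0.49 with LPS (SD 0.40, n = 6) and by -0.54 to 0.64 between agonists (SD 0.41, n = 6). The exception was MPLA against LPS in animal 170, at 0.31 by A_70_P039661 and -0.32 by A_70_P039662. The spot of A_70_P039661 on the LPS array of animal 170 was marked as non-uniform by the scanner software, the only such mark among the members. Leaving that spot out gave an LPS change of 1.52 for A_70_P039661 over the remaining 5 animals (limma adjusted p = 0.042).

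**Figure D4:**
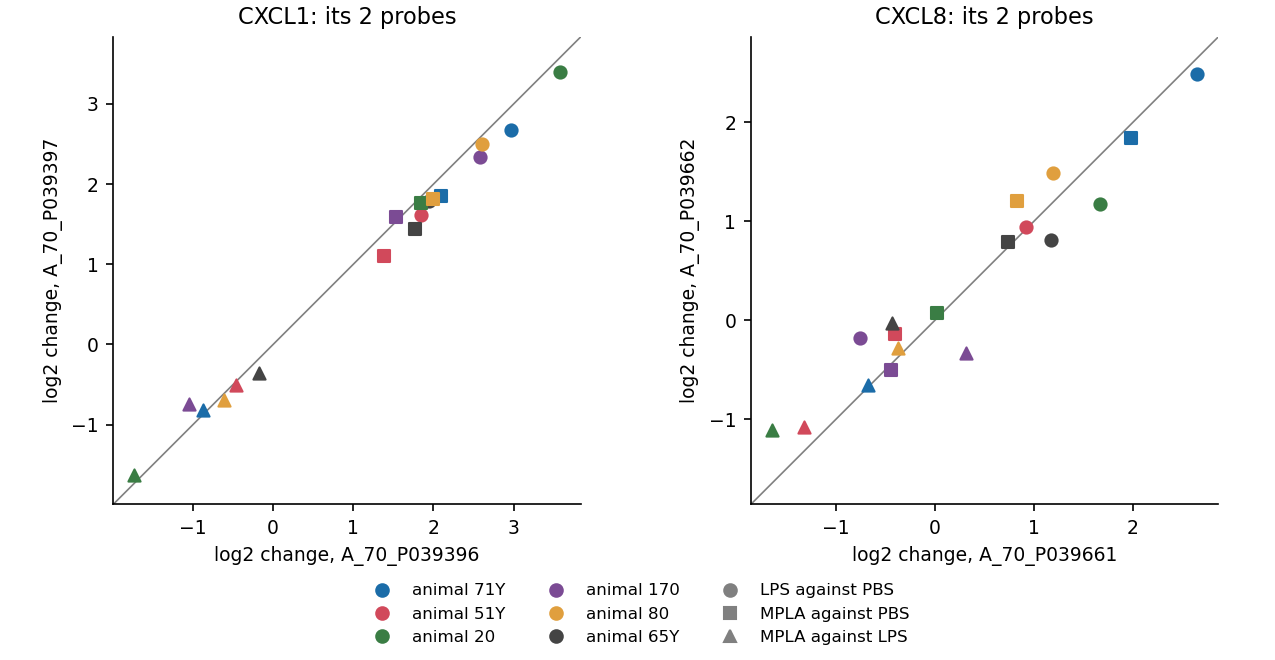
Log2 change by one probe of CXCL1 or CXCL8 (horizontal) against the other probe of that gene (vertical), with colours for the 6 animals, shapes for the 3 comparisons and the line of equality. CXCL1 points run along the line from below -1 to above 3, and CXCL8 points scatter more about it, with the triangle of animal 170 on opposite sides of 0.

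By the lead probes, CXCL1 gained more than CXCL8 in every animal. Their log2 changes lay 1.46 ± 0.90 apart with LPS and 1.22 ± 0.67 apart with MPLA (SD, n = 6). For each agonist the exact sign-flip test gave p = 0.031, which became 0.14 after adjustment over the 9 tests between members. By the other probes, A_70_P039397 and A_70_P039661, animal 71Y gave 1.85 for CXCL1 and 1.98 for CXCL8 with MPLA, and 2.67 and 2.65 with LPS. For MPLA against LPS CXCL1 and CXCL8 differed by -0.24 ± 0.48 (SD, n = 6; exact sign-flip p = 0.25). CXCL16 had 5 PBS readings at background, so its differences from the other members against PBS have no fixed size. As fitted, CXCL1 minus CXCL16 was 0.41 ± 1.40 with LPS and -0.61 ± 1.73 with MPLA (SD, n = 6). CXCL8 minus CXCL16 was -1.05 ± 1.75 and -1.83 ± 1.65 (SD, n = 6). No test involving CXCL16 passed (lowest adjusted exact p = 0.28). With signals raised to each array's lowest detected signal, the LPS changes of CXCL1, CXCL8 and CXCL16 were 2.59, 1.12 and 0.96. With MPLA they were 1.77, 0.55 and 1.38. The order of CXCL8 and CXCL16 with LPS thus turned with the handling of background readings.

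The animals did not rank alike for CXCL1 and CXCL8 by their lead probes. Animal 20 had the largest LPS change for CXCL1 (3.57), and animal 71Y had the largest for CXCL8. With MPLA animal 71Y led for both. The changes of CXCL16 are not ranked, since 5 of them start from a background reading. Animal 51Y had the smallest CXCL1 change with either agonist. Across the 18 arrays the normalised log2 levels of CXCL1 and CXCL8 correlated at r = 0.65, of CXCL1 and CXCL16 at r = 0.53, and of CXCL8 and CXCL16 at r = -0.05. These values describe 18 arrays that share 6 animals and the effect of treatment, and 7 of the 18 CXCL16 readings are not well above background.

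The slides gave like values for CXCL1, and for CXCL8 with LPS but not with MPLA. Within slide 1 (71Y and 170), slide 2 (80 and 65Y) and slide 3 (51Y and 20) the mean LPS change of CXCL1 A_70_P039396 was 2.78, 2.28 and 2.71, and that of CXCL8 A_70_P039662 was 1.16, 1.15 and 1.06. For CXCL16 it was 0.82, 3.01 and 2.69, but the PBS reading of every animal except 71Y was background, so these means have no fixed size. With MPLA, where slide 1 held animal 71Y alone, CXCL1 gave 2.09, 1.88 and 1.61, and CXCL8 gave 1.84, 1.00 and -0.03. CXCL16 gave 1.49, 4.18 and 1.83, of which only the first, that of 71Y, starts from a detected PBS reading. Each slide held different animals, so slide and animal cannot be told apart.

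Other genes followed the members across the 18 arrays, taken from 441 tested probes of 375 other named genes. Closest to CXCL1 was LOC101104661 (r = 0.93), the next protein-coding gene beside CXCL1 on the side away from CXCL8 in the sheep assembly. It rose by 5.55 ± 0.75 with LPS and 5.0 ± 0.70 with MPLA (SD, n = 6; limma adjusted p = 6.5e-06 and 3.6e-06). After it came IL6, a fever and acute phase cytokine (r = 0.91), and NFKBIZ, a nuclear IkB protein that steers NF-kB target genes (r = 0.91).

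Closest to CXCL8 were PTGS2, the inducible cyclooxygenase of prostaglandin synthesis (r = 0.77), KYNU, an enzyme of tryptophan breakdown (r = 0.74), and ETS2, a transcription factor (r = 0.69). Closest to CXCL16 were IL1B (r = 0.87) and IL1A (r = 0.78), the interleukin 1 cytokines, with SOD2, the mitochondrial superoxide dismutase, between them (r = 0.83). Every one of these 9 genes had a mean above PBS with both agonists. The partners of CXCL1 and the first of CXCL8 had lower means with MPLA than with LPS, by 0.55 to 0.87 on the log2 scale. Of these, LOC101104661 and NFKBIZ were not called between the agonists (limma adjusted p = 0.84 for each). MPLA minus LPS was -0.12 for KYNU and 0.12 for ETS2, and -0.09 for SOD2, 0.09 for IL1B and 0.45 for IL1A. IL6 and IL1A went undetected under PBS in all 6 animals, so their PBS values in these correlations are background readings, as are 7 of the 18 values of CXCL16. The correlations were ranked and not tested, and the arrays share 6 animals.

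Few relatives of the 3 genes could be read on this array. Of 21 other CXC ligands and receptors 3 had a named probe, and none passed the filter. CXCL10 was well above background on 2 PBS, 2 LPS and 3 MPLA arrays. CXCL12, the homing chemokine of bone marrow, was not detected on any array. CXCR4, its receptor on leukocytes, was well above background on 1 PBS, 1 LPS and 4 MPLA arrays by both of its probes. Of 30 other chemokines and receptors 3 were tested, and none was called: CCR3, an eotaxin receptor of eosinophils, XCL1, a T cell chemokine, and CCL25, a thymic and gut chemokine. Their mean changes stayed between -0.10 and 0.58 on the log2 scale with either agonist. The proteases ADAM10 and ADAM17, which release CXCL16 from the membrane, and its receptor CXCR6 had no named probe.

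Of 29 genes listed for the path from TLR4 to NF-kB, its IkB proteins among them, 3 were tested and 1 was called with each agonist (the background being 0.801% of probes called higher with LPS and 0.752% with MPLA). That gene was NFKBIZ, which rose by 2.61 with LPS (limma adjusted p = 0.00014) and 1.79 with MPLA (limma adjusted p = 0.0029). CD14, the co-receptor that hands LPS to TLR4, was at -0.18 and -0.43 by its probe A_70_P030286, and IRAK4, a kinase below the receptor, was at 0.05 with each agonist. Neither was called. TLR4 itself was well above background on 1 of 6 arrays of each treatment.

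Blood cell markers gave a partial check of the tissue. HBB, the beta globin of red cells, was detected on every array at levels of 851.8 to 5847. CD3D and CD3E of T cells, and CD14 and LYZ of monocytes, were detected on all 18 arrays too. None of these 5 markers was called in any comparison, and their mean changes lay between -0.48 and 0.19 on the log2 scale with either agonist. CD4 was not detected. No marker of neutrophils, B cells or platelets had a named probe, so the neutrophil content of the samples could not be followed.

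Across settings, the MPLA rise of CXCL1 by its lead probe A_70_P039396 stayed called under all 21 alternatives, at 1.69 to 2.01 on the log2 scale. The LPS rise of CXCL1 stayed called under 19 of 21, and fell to 2.04 without a call under normexp (limma adjusted p = 0.47). The LPS change of CXCL8 was called under 3 of 21, and that of CXCL16, which passed the filter only through its LPS arrays, under 7 of 21.

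**Figure D5:**
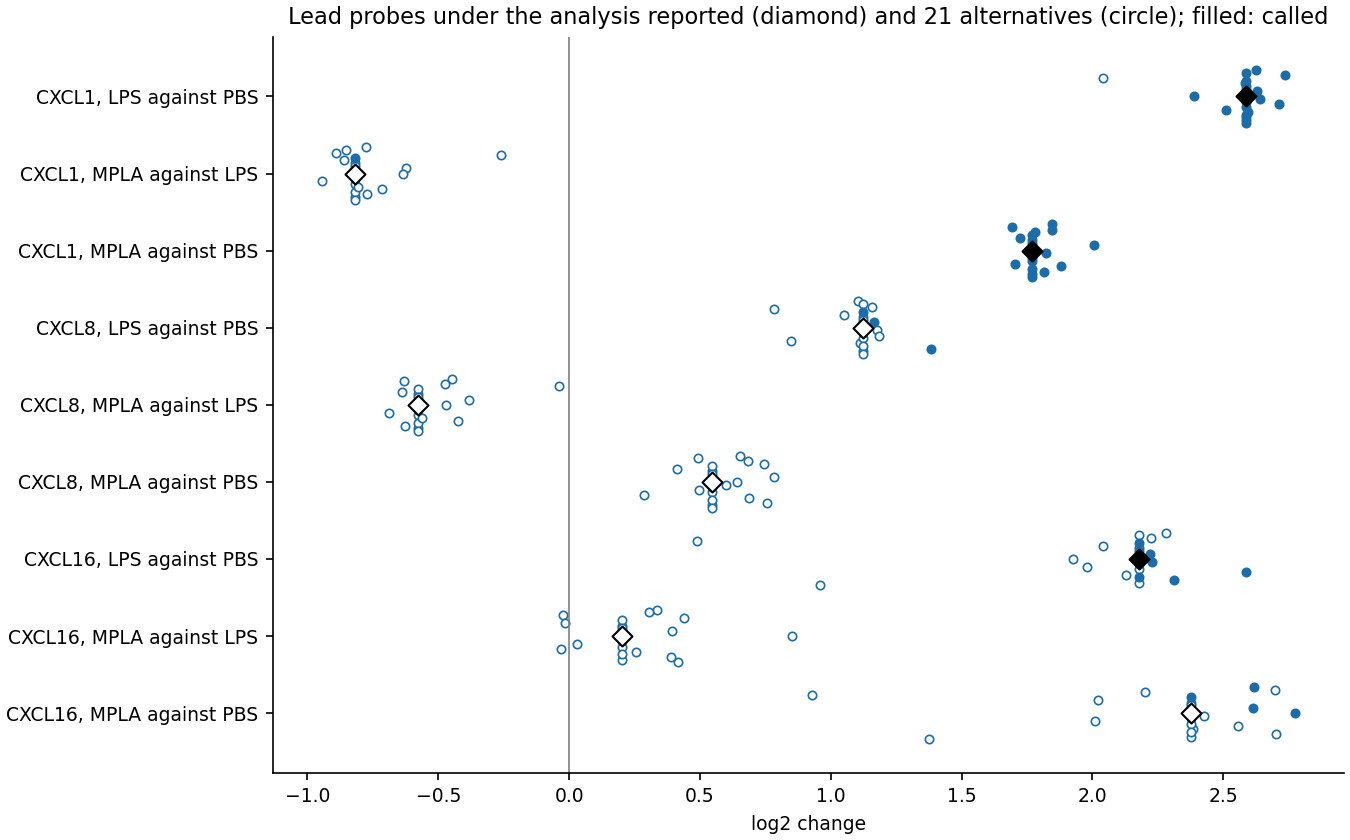
Log2 change of the lead probe of each gene in the 3 comparisons as reported (diamond) and under 21 other settings (circles, spread vertically to part equal values). Filled symbols are called and open ones are not. The circles of CXCL1 against PBS cluster and are nearly all filled, those of CXCL8 are mostly open, and those of CXCL16 range from 0.49 to 2.59 with LPS and from 0.93 to 2.77 with MPLA.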

How the data were processed

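Whole blood RNA of 6 sheep under 3 treatments was measured on 18 Agilent 1-colour sheep arrays, 1 per animal and treatment. The authors deposited each array's scanner output from Agilent Feature Extraction 11.5.1.1, and the intensity used here is its background-subtracted processed signal. A second table deposited by the authors holds ratios of each signal to a number near the array's 75th percentile. That scale was worked out here against the scanner intensities. On 2 of the 18 arrays the divisor was 0.79 of the percentile and on the others 0.98 to 1.00.

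Replicate spots were averaged by probe, divided by the 75th percentile that the 15008 non-control probes gave on that array, and put on the log2 scale. Probes well above background on all 6 arrays of at least 1 treatment were tested, which left 4122. Pairs of treatments were compared on their 12 arrays by moderated two-sided tests of limma 3.58.1 (lmFit, eBayes; R 4.3.3), with a fixed block for each animal, and a threshold of 0.05 on the Benjamini-Hochberg adjusted p. Titles name the animal. Deviations from treatment means correlated at 0.59 on average over the 18 same-animal pairs of arrays, and at 0.13 at the lowest. For single values, the signs of the 6 changes were flipped in all 64 ways to give an exact two-sided p. The lead probe of a gene is that of highest mean log2 level. The fit was tested on simulated data. Precision is limited by having 6 arrays per treatment.

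Names came from RefSeq accessions matched to the gene table of ARS-UI_Ramb_v3.0, used for names and gene order alone: 1265 of 2200 probes with an accession matched. The study's table named 7 more, CXCL16 among them. Genes named beside the members were those of lists of chemokines, TLR4 signalling genes and blood cell markers, and the 3 genes of highest Pearson r with each lead probe. The members and lists were chosen with earlier results of these data known. Other settings tried were 3 scalings, another background correction, the authors' table, looser filters, other blocks, other tests, floored values, marked spots removed and each animal left out. Normexp (offset 50) was planned on mean spot signals and was run on median ones. Labels name 2 amplification kits and do not assign them to samples. The human arm was not analysed here.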

Additional observations from a re-analysis of the deposited data

Results flagged for a closer look

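In 30 sets of 6 values (levels per treatment and changes per comparison for the 5 probes), 2 held a value set apart from the other 5 by a gap large for the range, where chance sets apart about 1 in 20. Both were of animal 20. The MPLA against LPS change of CXCL1 by A_70_P039397 was -1.63 in animal 20 and between -0.82 and -0.35 in the others. The LPS level of CXCL8 by A_70_P039661 was 10.00 on the normalised log2 scale in animal 20 and between 8.37 and 8.77 in the others. The partner probe of neither gene had a value set apart by the same measure.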

How the results depend on the processing

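Of 315 values of the 5 probes under other settings, 282 kept their direction and their side of the threshold, 18 lost a call, 12 gained one and 3 changed sign. The causes were not tested. The LPS change of CXCL1 was 2.04 with normexp (limma adjusted p = 0.47) and 2.59 by the methods' t-test after Benjamini-Hochberg (0.059), both uncalled, and 2.39 to 2.74 with an animal left out. The CXCL8 change with LPS by A_70_P039662 was called with median scaling (1.17) and at the methods' t-test threshold (1.12), and was 0.85 to 1.38 with an animal left out. The CXCL16 change with LPS was uncalled with quantile normalisation (2.28), cyclic loess (2.13), normexp (0.49) and floored values (0.96), and at 2.18 with the filter at 4 of 6 arrays, no filter, no replicate block, the slide as block, all 18 arrays in 1 fit and the methods' t-test after Benjamini-Hochberg. Leaving out an animal gave 1.92 to 2.59. The CXCL16 change with MPLA was called with quantile normalisation (2.62), median scaling (2.61) and the methods' t-test at its threshold (2.38), was 1.38 with floored values and 0.93 with normexp, and was 2.01 to 2.77 with an animal left out. For MPLA against LPS, CXCL1 was called at the t-test's threshold (-0.82), and CXCL16 changed sign without 71Y (-0.030), 51Y (-0.022) or 80 (-0.016) and reached 0.85 without 20. With no replicate block, the call of CXCL16 with LPS (adjusted p 0.19) was the one member call lost.

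Counts of called probes moved as well. With LPS the 37 became 2 with normexp, 71 at the t-test's threshold and 10 after its Benjamini-Hochberg adjustment, and 27 to 53 with an animal left out. With MPLA the 41 became 24 with no filter, 26 with the slide as block, 92 and 14 by the t-test before and after adjustment, and 35 to 284 with an animal left out, the highest without animal 20. Between agonists the 2 became 0 with cyclic loess, normexp, no filter, no replicate block or the slide as block, 1 with the filter at 4 of 6 arrays, 52 and 1 by the t-test before and after adjustment, and 0 to 18 with an animal left out, the highest again without animal 20. At an unadjusted p under 0.05 limma gave 190 between agonists. Scaling to the median moved the median of all tested probes from -0.09 to 0.14 with MPLA and from -0.08 to 0.11 between agonists, and normexp moved it from -0.01 to -0.17 with LPS. Signal over background limits the values of CXCL16, of whose 18 readings 7 were not well above background.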

Other observations

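CXCR4 and CXCL16 were detected on the same arrays under PBS and under MPLA, a match noticed after the values were seen and given as values alone. Under PBS both were well above background in animal 71Y and in no other, with CXCR4 at 8.62 by probe A_70_P016871 and at 0.0659 to 0.230 in the other 5 animals. Under MPLA both were well above background in 71Y, 51Y, 80 and 65Y, with CXCR4 at 7.02, 1.97, 2.72 and 0.908, and neither was in 20 and 170, with CXCR4 at 0.114 and 0.187. Under LPS the genes parted: CXCL16 was detected on all 6 arrays, and CXCR4 on that of 71Y alone, at 0.486. The other CXCR4 probe, A_70_P016872, was detected on the same 6 arrays. In animal 71Y CXCR4 was lower with LPS than with PBS, while CXCL16 was at 1.93 and 1.76. CXCL1 in that animal stood at its lowest PBS level of the 6 sheep.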
